A study of Mus musculus with 3 samples.

Results

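Cadherins are the transmembrane proteins through which cells of one kind hold on to each other, and a change in which cadherin a cell makes accompanies the conversion of kidney mesenchyme into nephron tubules. The levels of 8 cadherin genes, Cdh1, Cdh2, Cdh3, Cdh4, Cdh5, Cdh6, Cdh11 and Cdh16, were followed across the cell classes of the embryonic mouse kidney. The genes were chosen by name as a list. They are 8 of the 17864 gene symbols present in all 3 count tables, and all 8 had counts in every library.

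Wild-type E14.5 kidneys, from mouse embryos of mixed background (CD-1 and 129 for the most part), gave 3 libraries of single-cell RNA. There was 1 library from each of the Drop-seq, 10X and Fluidigm C1 platforms, and every library was wild type and untreated as far as the labels say. Drop-seq and 10X capture each cell in a droplet and count molecules by unique molecular identifiers (UMIs), while the C1 values are read counts from cells captured on a chip, with no molecular identifier stated. The labels do not say how many embryos were pooled or whether the libraries came from separate animals. The tests allow each library its own level. A p-value therefore measures how far differences between classes vary over these 3 libraries and platforms, with the spread estimated from all classes of a fit.

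The nephron forms when cap mesenchyme, the progenitor population at the tips of the ureteric tree, condenses and turns into an epithelial vesicle that then divides into podocytes, proximal tubule and distal tubule. In textbook accounts the mesenchyme carries N-cadherin (Cdh2) and cadherin-11 (Cdh11), and the epithelium carries E-cadherin (Cdh1), cadherin-6 (Cdh6, known from the early nephron and proximal tubule) and kidney-specific cadherin (Cdh16). P-cadherin (Cdh3) and R-cadherin (Cdh4) are further classical cadherins, and VE-cadherin (Cdh5) holds endothelial cells together. Classical cadherins bind catenins inside the cell, and repressors of the Snai and Zeb families are known to silence Cdh1.

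Cells were grouped without any of the 8 genes. After filtering, 1964 Drop-seq, 2130 10X and 883 C1 cells were clustered within each library and named from marker lists. A cell had a median of 7060 UMIs in Drop-seq and 7369 in 10X, and of 166712 reads in C1. Drop-seq and 10X each yielded cap mesenchyme (599 and 203 cells), early nephron epithelium (224 and 123), proximal precursors (89 and 110), distal precursors (210 and 136), podocytes (93 and 79), ureteric epithelium (175 and 154), stroma (413 and 855) and endothelium (101 and 405), beside 60 erythroid cells in Drop-seq and 65 immune cells in 10X. In C1 there were 203 cap mesenchyme, 94 early nephron, 72 proximal, 50 ureteric, 318 stromal, 79 endothelial and 12 immune cells, no cluster named distal precursor or podocyte, and 55 cells in a cluster left unnamed. As a check of the names, the cap mesenchyme markers summed to 1206, 1664 and 1847 CPM (counts of a gene scaled to the total counts of the class) in cap mesenchyme of Drop-seq, 10X and C1. The same list summed to 65.4, 43.5 and 514 CPM in ureteric epithelium of the same libraries, most in C1. The early nephron cluster of C1 held as many distal as early markers among its 10 leading genes (2 each) and was led by a haemoglobin gene, Hbb-y.

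A level is given as CPM of all counts of a class in a library, and intervals of levels and shares cover counting error only. Levels are compared between classes for the same gene, not between genes. The exons of the 8 genes overlap no exon of another gene in the GENCODE M21 annotation of build GRCm38. Cdh1 lies at chr8:106603351-106670246 on the plus strand with Cdh3 just before it at chr8:106510891-106557297, Cdh16 at chr8:104601911-104624396 on the minus strand, Cdh5 at chr8:104101625-104144511 on the plus strand and Cdh11 at chr8:102632095-102785642 on the minus strand. Cdh6 lies at chr15:13028701-13173675 on the minus strand, Cdh4 at chr2:179442431-179899373 on the plus strand and Cdh2 on chromosome 18.

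**Figure D1:**
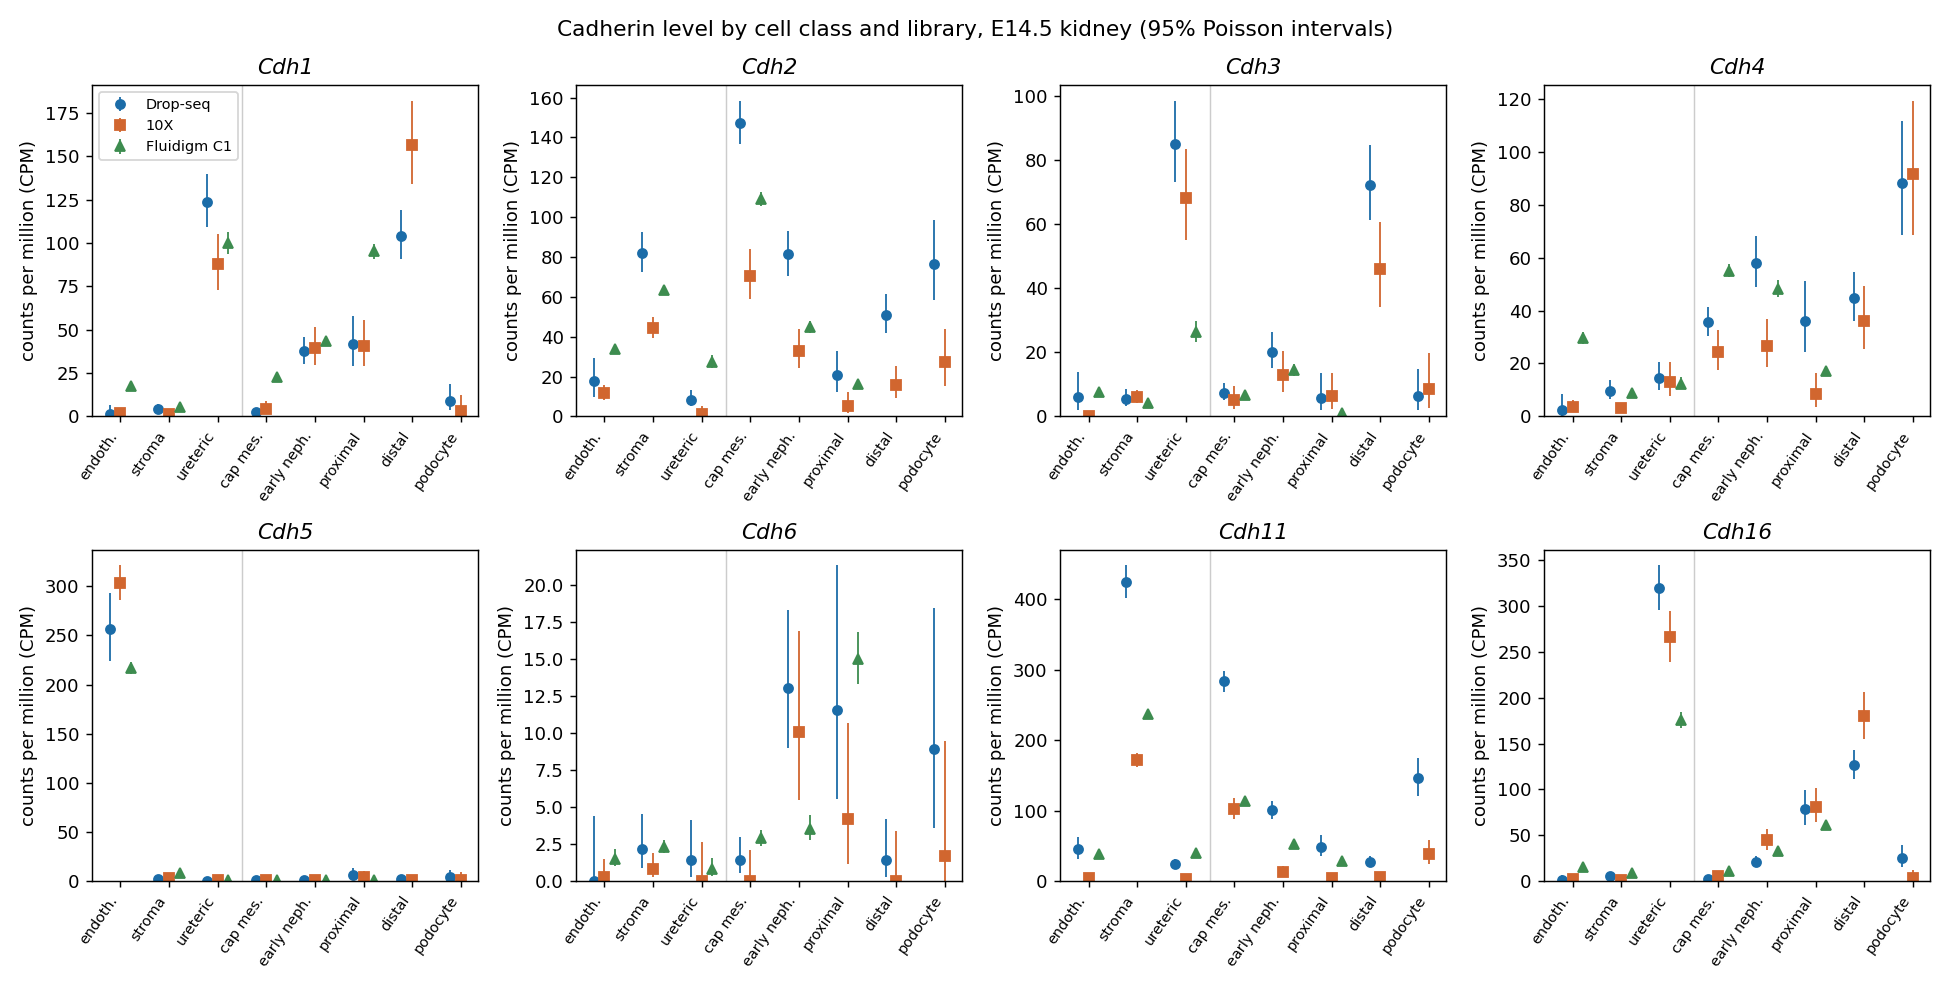
Level of each cadherin in CPM (vertical axes, each with its own range) by cell class and library; bars are exact 95% Poisson intervals, and C1 has no distal precursors or podocytes. Cdh1 and Cdh16 are high in ureteric epithelium and along the tubule classes, Cdh2 and Cdh11 in cap mesenchyme and stroma, and Cdh5 exceeds 200 CPM only in endothelium (257, 303 and 217 CPM).

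Nephron epithelium (early nephron, proximal and distal cells summed, with no distal cells in C1) differed from cap mesenchyme in 5 of the 8 cadherins. Cdh1, Cdh16 and Cdh6 were higher in nephron epithelium, and Cdh2 and Cdh11 were lower. Cdh3, Cdh4 and Cdh5 did not pass the test. The test was edgeR's quasi-likelihood test on class sums with the library as a block, with a call at an adjusted p under 0.05, and 6.51% of the 9676 genes tested were called in this comparison, 4.14% higher and 2.37% lower. These 9676 genes leave out the variable and marker genes that built the classes, while the cadherins and partner genes, barred from clustering, stayed in. Adjusted over all genes of the fit, 1461 of 12797 were called, 1009 higher and 452 lower. The shares given for the other comparisons leave out such genes too.

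E-cadherin, Cdh1, stood at 63.6 CPM in Drop-seq, 76.8 CPM in 10X and 69.7 CPM in Fluidigm C1 in nephron epithelium, against 2.69 CPM in Drop-seq, 4.52 CPM in 10X and 22.6 CPM in Fluidigm C1 in cap mesenchyme. All 3 nephron values lay above all 3 cap mesenchyme values, and C1 cap mesenchyme stood above that of the droplet libraries. The log2 fold change was 3.04 ± 0.63 (± SE, edgeR adjusted p = 0.0179). Here and below the SE of a fold change is derived from edgeR's F statistic in the fit over all class sums. C1 cap mesenchyme was made of a pair of clusters, and 1 of them, 120 cells with no cap mesenchyme marker among its 10 leading genes, had 38.9 CPM of Cdh1, against 0.971 CPM in the other, 83 cells led by Cited1. Without clusters of that kind the fold change was 5.13 (edgeR adjusted p = 0.00173). Cdh1 also stood at 17.5 CPM in C1 endothelium, a class not known for E-cadherin, beside 22.6 CPM in C1 cap mesenchyme.

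Kidney-specific cadherin, Cdh16, stood at 70.4 CPM in Drop-seq, 97.5 CPM in 10X and 47.5 CPM in Fluidigm C1 in nephron epithelium, against 2.48 CPM in Drop-seq, 5.65 CPM in 10X and 10.96 CPM in Fluidigm C1 in cap mesenchyme. The lowest nephron value was above the highest cap mesenchyme value, although C1 endothelium, at 15.9 CPM, stood above C1 cap mesenchyme. Cdh16 rose by 3.50 ± 0.75 on the log2 scale (edgeR adjusted p = 0.0252), and by 5.12 without the clusters that had no marker among their leading genes.

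Cdh6 was counted rarely in every library. It stood at 8.36 CPM in Drop-seq, 5.24 CPM in 10X and 9.35 CPM in Fluidigm C1 in nephron epithelium, against 1.45 CPM in Drop-seq, 0 CPM in 10X and 2.896 CPM in Fluidigm C1 in cap mesenchyme, where the 0 counts of 10X allow up to 1.695 CPM. The groups did not overlap. The log2 fold change was 2.54 ± 0.70 (edgeR adjusted p = 0.0354).

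Cdh6 was the 1 member of the 8 matched in a RefSeq table of promoters. Its 250 bases before the transcription start (GRCm38.p6, chr15:13173676-13173925, minus strand) are shown because Cdh6 separated nephron epithelium from both of its neighbours, cap mesenchyme and ureteric epithelium. Capitals mark matches on either strand to CTTTG, the core bound by TCF/LEF factors of the Wnt pathway.
Cdh6 promoter: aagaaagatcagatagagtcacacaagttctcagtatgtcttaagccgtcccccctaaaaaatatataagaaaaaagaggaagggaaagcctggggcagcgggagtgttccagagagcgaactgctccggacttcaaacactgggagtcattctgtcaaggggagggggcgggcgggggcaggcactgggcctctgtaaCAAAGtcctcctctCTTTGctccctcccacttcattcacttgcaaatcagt
The 2 matches begin 51 and 37 bases before the start (positions -51 and -37) and do not overlap. The same core occurs in 48.6% of the 32851 promoter windows of this length, and the Snai and Zeb E-box CAGGTG, which 17.2% of windows hold, has 0 matches in these letters on either strand.

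N-cadherin, Cdh2, stood at 60.2 CPM in Drop-seq, 19.8 CPM in 10X and 30.3 CPM in Fluidigm C1 in nephron epithelium, against 147 CPM in Drop-seq, 70.6 CPM in 10X and 109 CPM in Fluidigm C1 in cap mesenchyme. Every nephron value was below every cap mesenchyme value. Cdh2 fell by 1.63 ± 0.43 on the log2 scale, close to the threshold (edgeR adjusted p = 0.0466), and the call held in 7 of 15 alternative settings. Among the settings that ended it were Leiden clustering at resolution 1.6 (adjusted p = 0.0884, edgeR) and keeping all doublets (adjusted p = 0.0602, edgeR), with fold changes of -1.46 and -1.59. Leaving out the clusters with no marker among their leading genes also ended it, at -1.54 (edgeR adjusted p = 0.0662).

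Cadherin-11, Cdh11, the classical mesenchymal cadherin, stood at 64.4 CPM in Drop-seq, 9.02 CPM in 10X and 40.3 CPM in Fluidigm C1 in nephron epithelium, against 283 CPM in Drop-seq, 102 CPM in 10X and 113 CPM in Fluidigm C1 in cap mesenchyme. The highest nephron value lay below the lowest cap mesenchyme value. The fall was 2.30 ± 0.52 on the log2 scale (log2 fold change -2.30, edgeR adjusted p = 0.029).

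Each of the 5 calls was lost when Drop-seq or 10X was left out, with the direction kept. Without Drop-seq the adjusted p (edgeR) was 0.217 for Cdh1, 0.307 for Cdh16, 0.33 for Cdh6, 0.243 for Cdh2 and 0.338 for Cdh11. Without 10X it was 0.289, 0.235, 0.327, 0.376 and 0.21 for the same genes. Without C1, where edgeR called 12.9% of the genes tested, the 5 calls held and Cdh3 joined them at a log2 fold change of 2.16 (edgeR adjusted p = 0.00142).

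Of the 3 cadherins not called, P-cadherin (Cdh3) stood at 37.8 CPM in Drop-seq, 21.5 CPM in 10X and 7.603 CPM in Fluidigm C1 in nephron epithelium, against 7.44, 5.09 and 6.81 CPM in cap mesenchyme of the same libraries. Its log2 fold change was 1.5, with a 95% interval of -0.01 to 3.02. R-cadherin (Cdh4) stood at 49.5, 24.4 and 32.5 CPM in nephron epithelium of Drop-seq, 10X and C1, against 35.6, 24.3 and 55 CPM in cap mesenchyme. It was higher in nephron epithelium of Drop-seq and lower in that of C1, with a log2 fold change of -0.07 and an interval of -1.04 to 0.91. Cdh5 was at most 2.18 CPM in both classes.

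**Figure D2:**
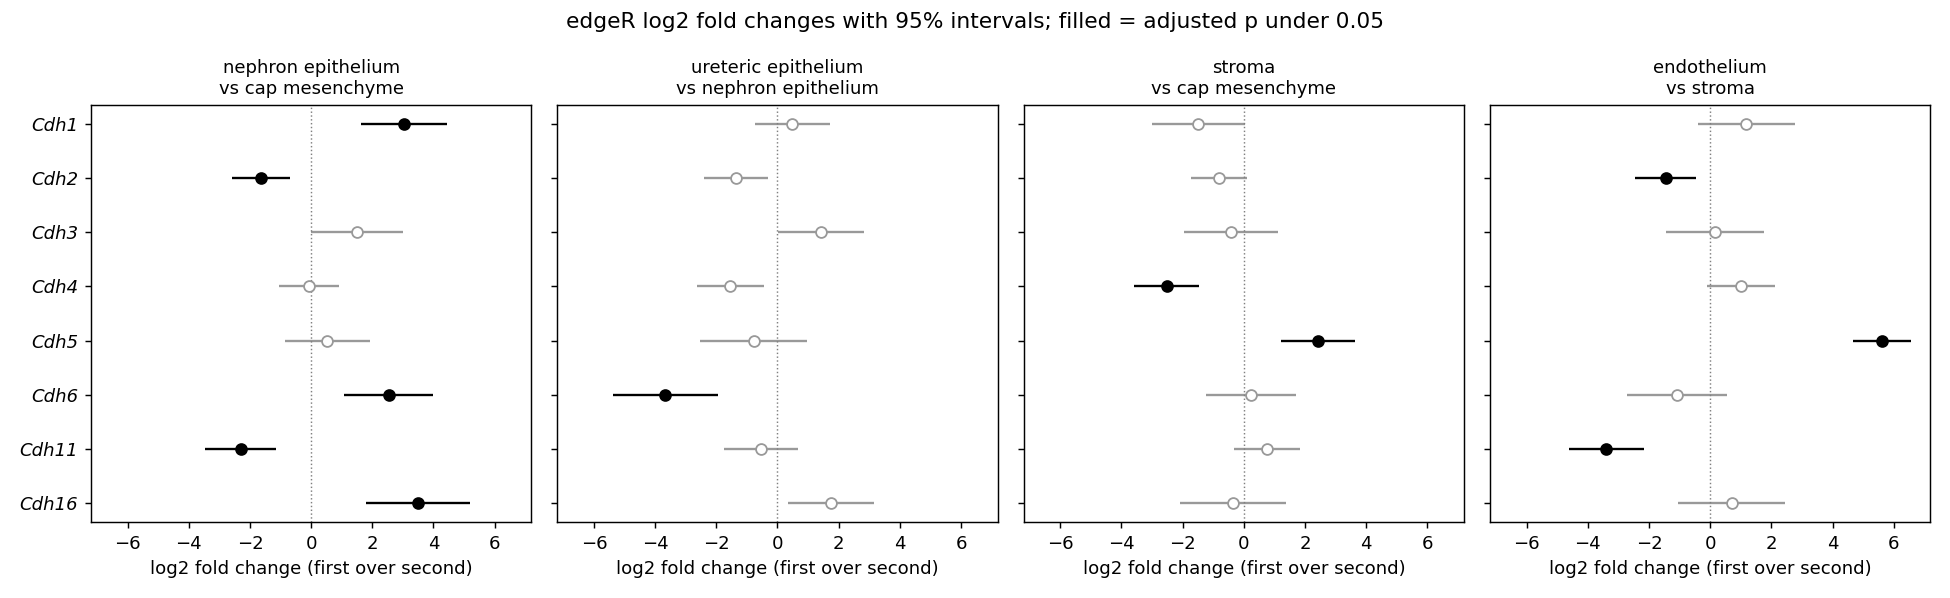
Log2 fold change of each cadherin in 4 comparisons (horizontal axes, first class over second), with 95% intervals from edgeR's fit to the class sums of 3 libraries; filled points passed an adjusted p of 0.05. In nephron epithelium against cap mesenchyme the called points lie on both sides of 0, from -2.30 for Cdh11 to 3.50 for Cdh16, and the largest change is that of Cdh5 in endothelium against stroma (5.62).

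Among 5 lists of partner genes chosen for their place in cell adhesion, 14 of 65 tested genes were higher in nephron epithelium than in cap mesenchyme and 3 were lower. The median log2 fold change over the 65 genes was 0.35, beside -0.02 over all genes tested. Of 6 desmosome genes 3 rose, with Perp at 3.72 ± 0.67 and desmoplakin (Dsp) at 2.91 ± 0.50 (log2, ± SE). Of 16 epithelial surface and polarity genes 6 rose, among them the apical polarity gene Crb3 at 4.20 ± 0.60 (edgeR adjusted p = 0.0023), Epcam at 3.09 ± 0.63 and the tight junction gene Cgn at 2.26 ± 0.51.

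Of 14 regulators of the mesenchymal and epithelial states, 4 rose and 1 fell in nephron epithelium. Grhl2, Ovol1, Esrp1 and Elf3, which are known from epithelial cells, rose by 3.06, 2.16, 3.06 and 4.51 on the log2 scale. Zeb1, a repressor of Cdh1, stood at -2.11 ± 0.39 (edgeR adjusted p = 0.00552). Of 10 catenins and their linkers 1 rose, vinculin (Vcl), at 0.88 ± 0.17. Of 19 other cadherin superfamily genes 2 fell, Fat3 at -3.17 ± 0.67 and Dchs1 at -1.10 ± 0.31.

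**Figure D3:**
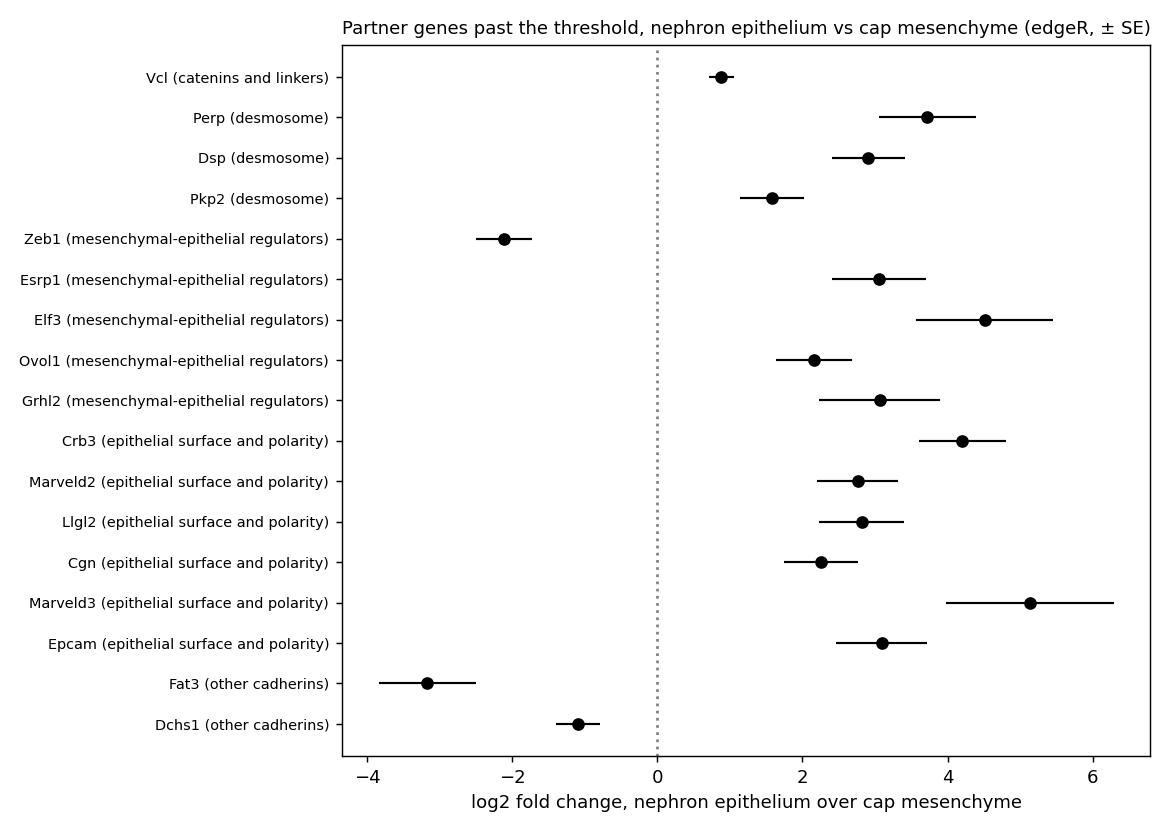
Log2 fold change of the 17 partner genes past the threshold in nephron epithelium against cap mesenchyme (horizontal axis), with the list each belongs to; points are edgeR estimates over 3 libraries and bars are ± SE. The 14 genes right of 0 run from 0.88 (Vcl) to 5.13 (Marveld3), and Zeb1, Fat3 and Dchs1 lie left of 0.

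Split by stage, Cdh1 and Cdh16 stood between the cap mesenchyme and tubule values in early nephron epithelium, and Cdh2 and Cdh11 did so in the other direction. No cadherin passed edgeR's test at either step over the 3 libraries. In early nephron epithelium against cap mesenchyme 0 of 8 cadherins were called by edgeR, 5 had an unadjusted p under 0.05 and DESeq2 called 3. Over all genes tested these shares were 1.16% of 9429 called by edgeR, 13.1% with an unadjusted p under 0.05 and 2.44% called by DESeq2. In tubule precursors against early nephron epithelium edgeR and DESeq2 called 0 of 8 and 4 had an unadjusted p under 0.05. Over all genes tested edgeR called 0.382%, DESeq2 called 2% and 14.6% had an unadjusted p under 0.05. Without C1, edgeR called Cdh1, Cdh2, Cdh6 and Cdh11 in the early step, against 5.96% of the genes tested in that fit. In the later step it called Cdh1 and Cdh2, against 3.16%. Of 61 partner genes tested, 1 passed in each step, Crb3 at 3.51 ± 0.56 (log2, edgeR adjusted p = 0.00814) in the early and the desmosomal plakophilin Pkp3 at 5.46 ± 1.19 (edgeR adjusted p = 0.048) in the later one.

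From cap mesenchyme through early nephron epithelium and proximal to distal precursors, Cdh1 was 2.69, 37.5, 41.7 and 104 CPM in Drop-seq and 4.52, 39.5, 40.7 and 157 CPM in 10X. In C1 it was 22.6, 43.4 and 95.2 CPM from cap mesenchyme to proximal precursors. The droplet libraries gave early nephron and proximal values whose intervals overlapped, with distal precursors above both, while in C1 proximal cells stood above early nephron cells. The early step was 2.16 ± 0.59 on the log2 scale (edgeR adjusted p = 0.115), and it was 3.50 without C1 (adjusted p = 1.35e-06, edgeR).

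Cdh16 followed the same order of classes, with 2.48, 20.9, 78.8 and 126 CPM in Drop-seq, 5.65, 44.5, 81.3 and 179.6 CPM in 10X, and 10.96, 33.4 and 61.1 CPM in C1. No neighbouring intervals overlapped in this order in any library. The log2 fold changes of the early and the later step were 2.32 and 1.69 (edgeR adjusted p = 0.184 and 0.263).

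Cdh2 ran the other way, at 147, 81.3, 20.9 and 50.9 CPM from cap mesenchyme to distal precursors in Drop-seq. In 10X the same classes had 70.6, 33.03, 5.21 and 15.7 CPM, and C1 had 109, 44.8 and 16.2 CPM up to proximal precursors. Early nephron cells thus held between the cap mesenchyme and proximal levels in all 3 libraries, and proximal cells had the lowest value of the lineage. Podocytes kept 76.7 and 27.1 CPM in Drop-seq and 10X, within the counting intervals of early nephron epithelium. The edgeR log2 fold changes were -1.07 ± 0.45 for the early step and -1.29 ± 0.47 for the later step (adjusted p = 0.32 and 0.234).

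Cdh11 stood at 283, 100.3, 48.7 and 27.6 CPM in that order in Drop-seq, 102, 13.6, 5.21 and 6.45 CPM in 10X, and 113, 52.8 and 28.1 CPM in C1. Its early nephron value was far below the cap mesenchyme value in each library. In Drop-seq 30 of the 224 early nephron cells formed a cluster led by Alx1 and Thy1, with 229 CPM, against 75.03 CPM in the other 194 cells. Podocytes had 146 CPM in Drop-seq and 38.9 CPM in 10X, above early nephron epithelium in both. The early step was -1.77 ± 0.49 (log2, edgeR adjusted p = 0.124).

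The remaining lineage cadherins differed in level between branches. Cdh3 was 72.3 and 46.1 CPM in distal precursors of Drop-seq and 10X, against 5.79 and 6.26 CPM in proximal precursors, and the C1 proximal cells had 0.975 CPM. The intervals of the distal and proximal values did not overlap in either droplet library. Ureteric epithelium, outside this lineage, had 85.2 CPM of Cdh3 in Drop-seq and 68.2 CPM in 10X. Cdh4 was highest in podocytes, the filter cells of the glomerulus, at 88.2 and 91.4 CPM, against 58.03 and 26.6 CPM in early nephron epithelium. Podocytes were found in the droplet libraries alone and their difference was not tested.

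Cdh6 was highest in early nephron and proximal cells, at 13.03 CPM in Drop-seq, 10.1 CPM in 10X and 3.54 CPM in Fluidigm C1 in early nephron epithelium and 11.6 CPM in Drop-seq, 4.17 CPM in 10X and 14.98 CPM in Fluidigm C1 in proximal precursors. Distal precursors had 1.43 CPM in Drop-seq and no count in 10X, which allows up to 2.76 CPM. The order of the first pair differed between libraries, with the proximal value above the early value in C1 alone, and the step passed no test (log2 fold change -0.72, edgeR adjusted p = 0.737). In the droplet libraries every neighbouring pair of Cdh6 levels had overlapping intervals, and podocytes had 8.95 CPM in Drop-seq and 1.69 CPM in 10X. In C1 proximal cells stood apart, and 4 of 5 neighbouring pairs overlapped. Among these were early nephron epithelium and cap mesenchyme (intervals of 2.75 to 4.50 and 2.38 to 3.49 CPM).

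Single cells were next compared at a fixed depth, with each cell thinned to 4000 UMIs in the droplet libraries and 50000 reads in C1 and shallower cells left out. In cap mesenchyme 4 of 582 Drop-seq cells (0.687%) had a count of Cdh1, as did 4 of 182 in 10X (2.198%) and 29 of 186 in C1 (15.6%). In early nephron epithelium the shares were 10.8%, 13.3% and 39.1%, and in distal precursors 26.3% of Drop-seq and 41.7% of 10X cells had one. Endothelium, taken as the background class, gave 0 of 101 cells in Drop-seq, 3 of 351 in 10X and 11 of 74 in C1, so the pooled C1 cap mesenchyme share lay at the C1 background. That share mixes the C1 clusters described above, which differed widely in Cdh1. The 0 of 101 Drop-seq cells allow a share of up to 2.97%. Unthinned, the early nephron shares of Cdh1 were 25%, 31.7% and 46.8%.

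Cdh2 was found in 42.4%, 22.5% and 75.8% of cap mesenchyme cells of Drop-seq, 10X and C1, and in 20.7%, 14.2% and 46.7% of early nephron cells. Proximal precursors had 4.55%, 3.85% and 26.4%. Immune cells, taken as the background class for Cdh2, were few, with a count in 3 of 36 cells of 10X (8.33%) and 5 of 11 of C1. Endothelial cells had 6.93%, 5.98% and 41.9%, and ureteric cells 2.299%, 0% (0 of 135 cells, which allows up to 2.22%) and 37.5%. The cap mesenchyme share was above those of all 3 classes in each library where they were found. The early nephron share was above them in the droplet libraries and close to the immune and endothelial shares in C1. The proximal share was below the endothelial share in each library, and above the ureteric share in the droplet libraries. Unthinned, 62.1%, 46.3% and 81.8% of cap mesenchyme cells had a count of Cdh2.

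Cdh11 was found in 63.4%, 33.5% and 69.4% of cap mesenchyme cells of Drop-seq, 10X and C1 and in 23.4%, 3.54% and 52.2% of early nephron cells, beside 13.9%, 1.99% and 50% in endothelium, its background class. The early nephron share of 10X and C1 was thus near the background while that of cap mesenchyme was above it in each library. Unthinned, 79.8%, 57.1% and 78.3% of cap mesenchyme cells had a count of Cdh11.

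Cdh16 had a count in 52.9%, 54.8% and 75% of ureteric cells of Drop-seq, 10X and C1 and in 26.1%, 25% and 36.1% of proximal precursors, beside 0%, 1.14% and 21.6% of endothelial cells. Podocytes of Drop-seq and 10X had a count of Cdh4 in 34.1% and 32.4% of cells, against 0.9901% and 1.71% of endothelial cells. Cdh3 was found in 26.3% and 15.8% of their distal precursors, against 0.9901% and 0% of endothelial cells, and Cdh6 in 3.604% and 3.54% of early nephron cells, against 0% and 0.285% of endothelial cells. No count of Cdh3 in 351 endothelial cells of 10X allows a share of up to 0.855%, and none of Cdh6 or Cdh16 in 101 of Drop-seq up to 2.97%. Unthinned, the ureteric shares of Cdh16 were 70.3%, 83.8% and 80%, and the podocyte shares of Cdh4 were 47.3% and 45.6%.

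Cells of early nephron epithelium with counts of both Cdh1 and Cdh2 cannot outnumber those with a count of Cdh1, the rarer of the pair in each library. Whether the genes met in the same cells more or less often than their separate shares predict was not tested. No doublets were removed from Drop-seq. In Drop-seq 7 of 222 early nephron cells had both, out of 24 with Cdh1 and 46 with Cdh2. In 10X 1 of 113 had both, out of 15 with Cdh1 and 16 with Cdh2. The deeper C1 cells gave 15 of 92 with both, out of 36 with Cdh1 and 43 with Cdh2. A cell without a count of a gene at this depth is not shown to lack it, and C1 endothelium also had both in 5 of 74 cells.

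Both genes of the epithelial pair Cdh1 and Cdh16 had counts in 29 of 174 Drop-seq, 29 of 135 10X and 23 of 48 C1 ureteric cells. The distal precursors had both in 21 of 209 Drop-seq and 27 of 120 10X cells. Proximal precursors had both in 1 of 88, 4 of 104 and 16 of 72 cells of Drop-seq, 10X and C1, and early nephron epithelium in 3 of 222, 3 of 113 and 14 of 92. The shares of early nephron and proximal cells were thus low in the droplet libraries and higher in C1, where 5 of 74 endothelial cells also had both. The mesenchymal pair Cdh2 and Cdh11 had counts together in 168 of 582 Drop-seq, 17 of 182 10X and 101 of 186 C1 cap mesenchyme cells. In early nephron epithelium 8 of 222, 1 of 113 and 24 of 92 cells had both. These shares are descriptions of cells in 1 library each and were not tested.

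**Figure D4:**
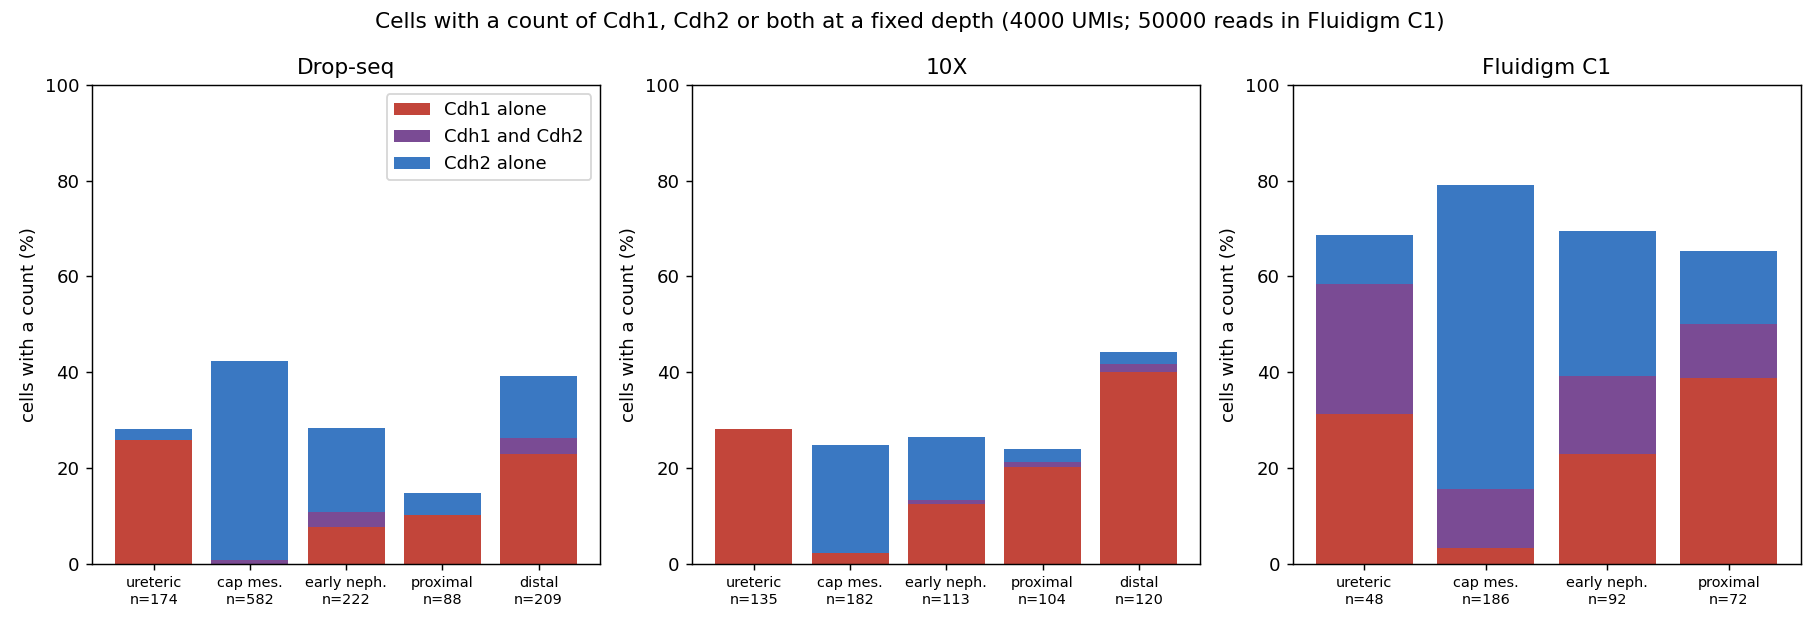
Share of cells (vertical axis, %) with a count of Cdh1 alone, of both or of Cdh2 alone at the fixed depth, by class and library; n is the number of cells deep enough. Cdh2 alone fills most of the cap mesenchyme bar in each library, and Cdh1 fills most of the ureteric, proximal and distal bars of Drop-seq and 10X.

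Ordering cap mesenchyme and nephron cells by a score of early nephron over cap mesenchyme markers gave the same broad picture in 5 equal bins. In Drop-seq Cdh2 was 138 CPM in the first bin and 68.6 CPM in the last, while Cdh1 was 1.104 and 57.04 CPM. Cdh11 was 310.4 CPM in the first and 45.03 CPM in the last bin there. The C1 bins ran from 106 to 44.7 CPM in Cdh2 and from 1.12 to 93.5 CPM in Cdh1, first to last, although 28.8% of the cells in the last bin were cap mesenchyme. The score is no order of maturity, since 63.2% of the last 10X bin and 50% of the last Drop-seq bin were early nephron cells and tubule precursors filled most of the third 10X bin, where Cdh1 was 102 CPM and Cdh2 7.52 CPM.

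The ureteric epithelium, the branching tube that becomes the collecting duct, is a second epithelium that does not pass through cap mesenchyme. It differed from nephron epithelium in 1 of the 8 cadherins, Cdh6, against 6.56% of all genes tested (3.35% higher and 3.21% lower). Cdh6 stood at 1.41 CPM in Drop-seq, 0 in 10X (up to 2.18 CPM at 0 counts) and 0.799 CPM in C1 ureteric epithelium, against 8.36 CPM in Drop-seq, 5.24 CPM in 10X and 9.35 CPM in Fluidigm C1 in nephron epithelium. No ureteric value reached a nephron value. The log2 fold change was -3.66 ± 0.81 (edgeR adjusted p = 0.0105), and the call was lost without Drop-seq (adjusted p = 0.159, edgeR) or without 10X (adjusted p = 0.101, edgeR).

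Cdh16 was 319 CPM in Drop-seq, 266 CPM in 10X and 175 CPM in Fluidigm C1 in ureteric epithelium, against 70.4, 97.5 and 47.5 CPM in nephron epithelium of the same libraries. It was higher in ureteric epithelium in 3 of 3 libraries, with a log2 fold change of 1.75 that did not pass (edgeR adjusted p = 0.144). It passed without C1 (1.76, edgeR adjusted p = 0.0315), where 10.4% of the genes tested were called. Cdh1 stood at 124, 87.8 and 99.96 CPM in ureteric epithelium, against 63.6, 76.8 and 69.7 CPM in nephron epithelium, with an interval of the log2 fold change of -0.74 to 1.70. Cdh3 stood at 85.2, 68.2 and 26.4 CPM in ureteric epithelium, against 37.8, 21.5 and 7.603 CPM in nephron epithelium (log2 fold change 1.43, edgeR adjusted p = 0.227).

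Cdh2 was 8.47 CPM in Drop-seq, 1.45 CPM in 10X and 27.6 CPM in Fluidigm C1 in ureteric epithelium, against 60.2, 19.8 and 30.3 CPM in nephron epithelium. The values of the classes lay nearest to each other in C1. The log2 fold change was -1.36 over 3 libraries (edgeR adjusted p = 0.125) and -2.94 without C1 (edgeR adjusted p = 8.29e-08). The cap mesenchyme markers summed to 514 CPM in C1 ureteric cells, against 65.4 and 43.5 CPM in Drop-seq and 10X. Whether they have a part in the C1 value of Cdh2 was not tested. Cdh4 was 14.6, 13.1 and 12.4 CPM in ureteric epithelium, against 49.5, 24.4 and 32.5 CPM in nephron epithelium (log2 fold change -1.55, edgeR adjusted p = 0.0904). Without C1 it was called at -1.47 (edgeR adjusted p = 0.00203), as was Cdh3 at 1.33 (edgeR adjusted p = 0.00879).

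Within the ureteric epithelium the droplet libraries each held a small cluster led by Krt19 and Fxyd4, known from collecting duct and urothelial cells, beside a larger one led by Calb1, in which Ret, the receptor gene of the branching tips, was also among the leading genes. Cdh1 was 292 CPM in the 16 Krt19 cells of Drop-seq, against 80.9 CPM in the 159 Calb1 cells, and 274 CPM in the 37 Krt19 cells of 10X, against 46.9 CPM in the 117 Calb1 cells. Cdh16 was 969 against 154 CPM and 587 against 195 CPM in the same clusters. Cdh3 ran the other way, at 39.4 against 96.9 CPM in Drop-seq and 40.2 against 74.4 CPM in 10X. The 50 ureteric cells of C1 formed 1 cluster, and these differences between clusters were not tested.

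**Figure D5:**
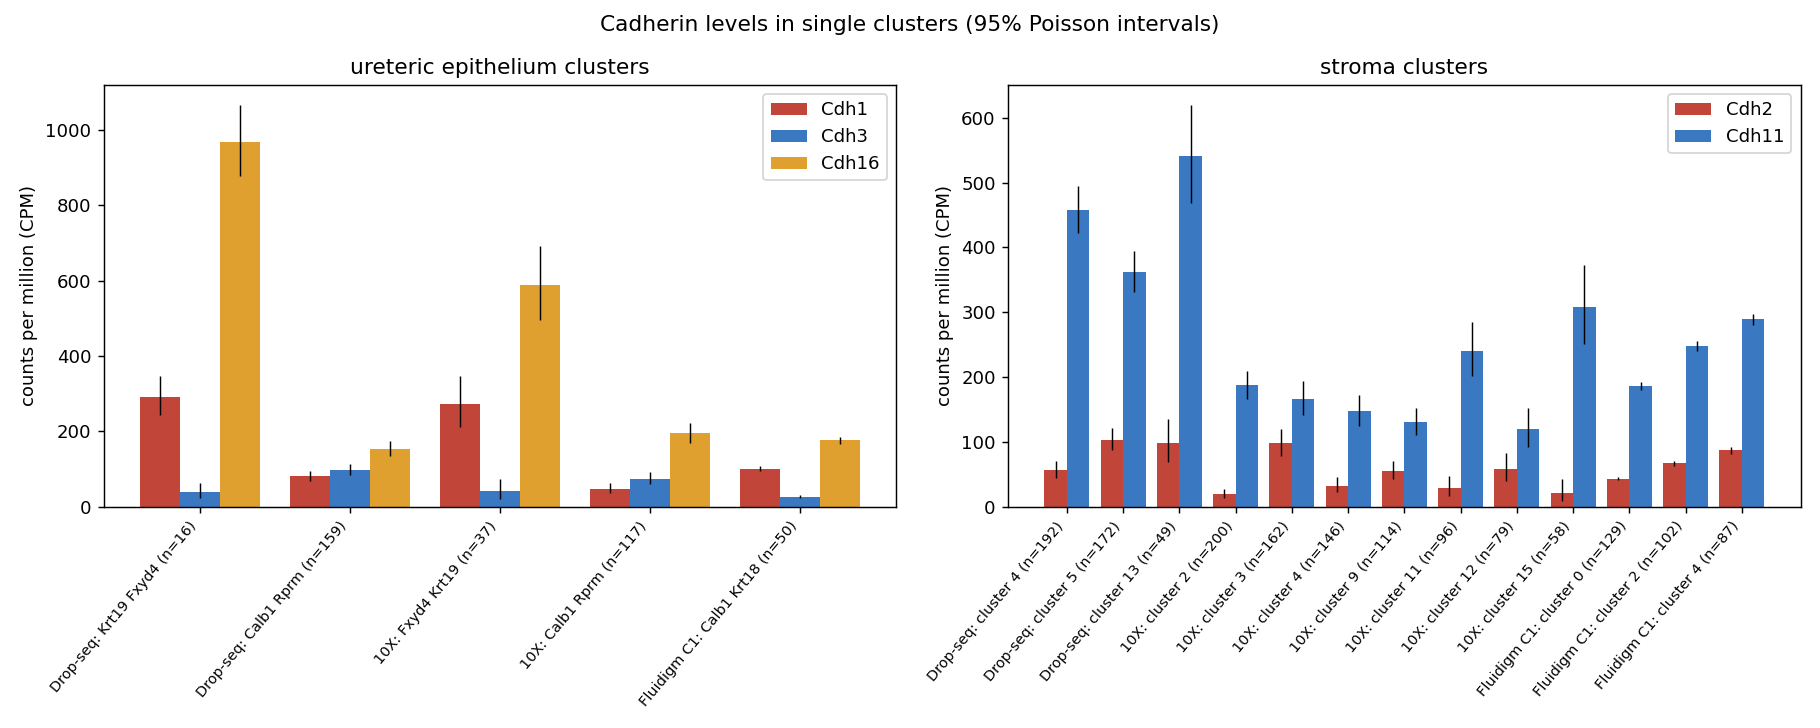
Level in CPM (vertical axes) of Cdh1, Cdh3 and Cdh16 in each ureteric cluster and of Cdh2 and Cdh11 in each stromal cluster, labelled by library, by leading genes (ureteric) or cluster number (stromal), and by number of cells; bars are 95% Poisson intervals, and heights of different genes are not comparable. The Krt19 and Fxyd4 clusters of Drop-seq and 10X stand above the Calb1 clusters in Cdh1 and Cdh16 and below them in Cdh3.

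Partner genes separated the epithelia further, with 13 of 65 higher in ureteric than in nephron epithelium and 2 lower. The median log2 fold change was 0.45, beside -0.02 over all genes tested. Among the regulators Klf5 and Ovol2 rose by 5.76 and 4.16 on the log2 scale, and Zeb2, a repressor of Cdh1, stood at -2.14 ± 0.34 (edgeR adjusted p = 0.00153). The desmosomal cadherins Dsc2 and Dsg2 were higher by 3.99 and 1.82, and the p120-family catenins Ctnnd2 and Ctnnd1 by 3.07 and 0.83.

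Stroma, the other mesenchyme of the kidney, differed from cap mesenchyme in 2 of 8 cadherins, against 10.6% of all genes tested (5.13% higher and 5.46% lower). Cdh4 was lower in stroma and Cdh5 higher, while the mesenchymal cadherins Cdh2 and Cdh11 did not pass. Cdh4 stood at 9.74 CPM in Drop-seq, 3.08 CPM in 10X and 8.93 CPM in Fluidigm C1 in stroma, against 35.6 CPM in Drop-seq, 24.3 CPM in 10X and 55 CPM in Fluidigm C1 in cap mesenchyme. All stromal values lay below all cap mesenchyme values. Its log2 fold change was -2.52 ± 0.49 (edgeR adjusted p = 0.00644), and -2.36 without 10X, where the call was lost (edgeR adjusted p = 0.0808).

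Cdh11 stood at 425 CPM in Drop-seq, 172 CPM in 10X and 237 CPM in Fluidigm C1 in stroma, against 283 CPM in Drop-seq, 102 CPM in 10X and 113 CPM in Fluidigm C1 in cap mesenchyme. Stroma was higher in 3 of 3 libraries, but the ranges over libraries overlapped and the log2 fold change of 0.75 had an interval of -0.33 to 1.82. Cdh2 stood at 82.02, 44.4 and 63.6 CPM in stroma of Drop-seq, 10X and C1, against 147, 70.6 and 109 CPM in cap mesenchyme. It was lower in stroma in 3 of 3 libraries, with a log2 fold change of -0.81 (edgeR adjusted p = 0.263) that passed without C1 at -0.80 (edgeR adjusted p = 0.0015). Without C1, 17% of the genes tested were called in that comparison.

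Stromal clusters were not alike. Cdh11 was highest in the clusters with Lum or Car3 among their leading genes, at 540.5 CPM in Drop-seq, 308 CPM in 10X and 289 CPM in C1, and the lowest stromal clusters of those libraries had 362, 119 and 187 CPM. The other leading genes of the high clusters differed, with Actg2, Cnn1 and Myh11 in 10X and Angpt2, Ccl11 and Mgp in C1. Angpt2, Ccl11 and Mgp were also among the leading genes of the lowest 10X cluster.

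Cdh5 in stroma stood at 2.2 CPM in Drop-seq, 3.08 CPM in 10X and 8.75 CPM in Fluidigm C1, against 1.65 CPM in Drop-seq, 1.13 CPM in 10X and 0.861 CPM in Fluidigm C1 in cap mesenchyme. Every stromal value was above every cap mesenchyme value, by little in Drop-seq and by most in C1. The droplet values rest on few counts, 7 in stroma and 8 in cap mesenchyme of Drop-seq, and 19 and 2 in 10X. In both of these libraries the counting intervals of stroma and cap mesenchyme overlapped, so the difference lay within counting error there. The intervals lay apart in C1 alone. The log2 fold change was 2.42 ± 0.55 (edgeR adjusted p = 0.0155), and without C1 it was 0.71 and no longer called (edgeR adjusted p = 0.377). It was also lost without Drop-seq at 2.83 (edgeR adjusted p = 0.0508) and without 10X at 2.68 (edgeR adjusted p = 0.105).

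The C1 cells carry a pair of name groups, E14 and HT, which the labels do not explain. Cdh5 was 20.5 CPM in the 120 stromal cells named E14, against 1.57 CPM in the 198 named HT, and with the groups taken apart the edgeR adjusted p was 0.0638. All 9 endothelial markers had counts in stroma of every library, summing to 58.5, 121 and 115 CPM in Drop-seq, 10X and C1 stroma, against 31.4, 40.1 and 56.4 CPM in cap mesenchyme, where Kdr, Tek and Tie1 were at 0 in 10X. In endothelium the same list summed to 2974, 3411 and 2115 CPM. The part of these markers in the Cdh5 result was not tested.

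Among partner genes 12 of 65 were higher and 8 lower in stroma than in cap mesenchyme, and the median log2 fold change was 0.01, beside -0.06 over all genes tested. Of 14 regulators 6 were higher and 1 lower. The repressors Snai1, Snai2 and Zeb2 were higher by 3.11, 2.93 and 2.57, and the mesenchymal factors Twist1 and Twist2 by 4.33 and 4.08 (edgeR adjusted p at most 0.00609). Klf5, which was also higher in ureteric than in nephron epithelium, was the remaining higher one, and Ovol1 was lower at -2.23 ± 0.61. Cdh1 itself was low in both classes, at 4.4, 1.295 and 5.63 CPM in stroma, against 2.69, 4.52 and 22.6 CPM in cap mesenchyme, and was not called (log2 fold change -1.49, edgeR adjusted p = 0.213). That difference turned to 0.85 when clusters with no marker among their leading genes were left out. Of other cadherin superfamily genes, Pcdh9, Pcdh18 and Fat4 were higher and Celsr1 and Celsr2 lower in stroma, with Pcdh18 at 3.06 ± 0.45 and Celsr1 at -1.62 ± 0.41.

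Endothelium differed from stroma in 3 of 8 cadherins, against 16.9% of all genes tested (8.22% higher and 8.68% lower). VE-cadherin was higher, and Cdh11 and Cdh2 were lower. Cdh5 stood at 257 CPM in Drop-seq, 303 CPM in 10X and 217 CPM in Fluidigm C1 in endothelium, against 2.2 CPM in Drop-seq, 3.08 CPM in 10X and 8.75 CPM in Fluidigm C1 in stroma. The classes were far apart in every library, at a log2 fold change of 5.62 ± 0.43 (edgeR adjusted p = 8.97e-06), and the call held in 15 of 15 alternative settings. At the fixed depth 59.4%, 68.7% and 90.5% of endothelial cells of Drop-seq, 10X and C1 had a count, against 0.859%, 0.549% and 3.23% in cap mesenchyme, the background class. In 10X the level ran from 139 CPM in an endothelial cluster of 21 shallow cells to 859.5 CPM in 15 cells with the arterial genes Gja4, Gja5 and Sox17 among their leading genes.

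Cdh11 stood at 45.1 CPM in Drop-seq, 5.04 CPM in 10X and 38.5 CPM in Fluidigm C1 in endothelium, against 425 CPM in Drop-seq, 172 CPM in 10X and 237 CPM in Fluidigm C1 in stroma. Endothelial values lay below all stromal values, with a log2 fold change of -3.39 ± 0.55 (edgeR adjusted p = 0.00277). The stromal markers summed to 236, 83.3 and 828 CPM in endothelium of Drop-seq, 10X and C1, against 3359, 4156 and 5544 CPM in stroma, and 10X, with the fewest stromal marker counts in endothelium, had the lowest Cdh11 there. The part of these counts in the result was not tested. The call was lost without Drop-seq (-3.54, edgeR adjusted p = 0.109) and without 10X (-2.78, edgeR adjusted p = 0.0524).

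Cdh2 stood at 17.8 CPM in Drop-seq, 11.7 CPM in 10X and 33.8 CPM in Fluidigm C1 in endothelium, against 82.02 CPM in Drop-seq, 44.4 CPM in 10X and 63.6 CPM in Fluidigm C1 in stroma. Endothelium was lower in 3 of 3 libraries and all its values were below the lowest stromal value. The log2 fold change of -1.46 ± 0.46 was just past the threshold (edgeR adjusted p = 0.0489) and held in 5 of 15 alternative settings. It was lost without Drop-seq (-1.29, edgeR adjusted p = 0.255) and without 10X (-1.21, edgeR adjusted p = 0.374).

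Partner genes changed both ways, with 10 of 65 higher and 11 lower in endothelium than in stroma. Plakoglobin (Jup), a catenin of VE-cadherin junctions, was higher by 1.73 ± 0.26 and the tight junction scaffold Tjp1 by 1.71 ± 0.20 on the log2 scale. All of Snai1, Snai2, Zeb2, Twist1 and Twist2 were lower, from -2.33 for Zeb2 to -3.82 for Twist2. Of the other cadherins Pcdh17 was higher at 4.87 ± 0.51 (edgeR adjusted p = 9.95e-05) and Pcdh18 lower at -3.47 ± 0.46.

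The order of the classes by level summarises each gene. Cdh1 was highest in ureteric epithelium in Drop-seq and C1 and in distal precursors in 10X, and the intervals of the first and second class overlapped in Drop-seq and C1. In Drop-seq the ureteric lead rested on the 16 Krt19 cells, since the other 159 ureteric cells had 80.9 CPM, against 104 CPM in distal precursors, and at the fixed depth 25.9% of ureteric and 26.3% of distal cells had a count. Cdh2 was highest in cap mesenchyme, followed by stroma and then early nephron epithelium, in all 3 libraries, with stroma and early nephron epithelium overlapping in the droplet libraries. Cdh11 was highest in stroma and next in cap mesenchyme in each library, and Cdh16 was highest in ureteric epithelium in each, without overlap of the leading intervals. Cdh3 led in ureteric epithelium, overlapping distal precursors in both droplet libraries. Cdh4 led in podocytes where these were found and in cap mesenchyme in C1, and Cdh6 led in early nephron cells of the droplet libraries and in proximal cells of C1.

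Over the 20 class sums of the 3 libraries, each centred within its library, the genes most like Cdh1 were Cldn6 (Pearson r = 0.98), Rassf7 and Crb3. Those most like Cdh2 were Dpysl4 (r = 0.95), Cped1 and Vcan, and those most like Cdh11 were 6030408B16Rik (r = 0.97), Tgfbi and Shisa3. Cdh16 was most like Cdh1 (r = 0.96), Aim1 and Pdzk1ip1, and Cdh6 was most like Xylb (r = 0.87), Enpep and Osr2. Cdh5 was most like Ecscr (r = 0.97), Mmrn2 and Kdr. The class sums share libraries and classes, so these values describe likeness of pattern and carry no test. Genes that built the classes were not left out here. Kdr was a naming marker of endothelium and Osr2 of early nephron epithelium, so their patterns are partly built in.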

How the data were processed

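Raw counts per gene and cell were taken from the 3 deposited count tables. Per the submitters' processing notes, Drop-seq and C1 reads were aligned with Bowtie2 2.2.7 and 10X reads processed with Cell Ranger 1.3.0, on mm10. No source used here gives the annotation, the tool that counted Drop-seq and C1 reads, or how the authors picked cells. The authors' normalized copies were not used.

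Cells with under 500 genes (36 Drop-seq, 43 10X) or over 20% mitochondrial counts (105 10X) were removed, as were 17 10X and 11 C1 doublets called by scrublet in scanpy 1.11.5. The doublet call marked 0.255% of Drop-seq cells, did not work there and was not applied. Each library was clustered on 2000 variable genes (30 components, 15 neighbours, Leiden resolution 1) without the 8 cadherins, their partner lists, other cadherins and protocadherins, and genes of the cell cycle, mitochondria, ribosome and haemoglobin. A cluster was named for the class whose markers led, with 3 or more markers above the other cells. The rule that left 55 C1 cells (6.23%) unnamed was set after the clusters were seen.

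Counts were summed per library and class of 20 or more cells, and tested with edgeR 4.0.16 (R 4.3.3; TMM, low-count filter, robust quasi-likelihood, library as block). P-values were adjusted by Benjamini-Hochberg over the genes used neither to cluster nor to name cells. Because pooled and split nephron classes share cells, 2 fits were made, on 17 class sums for the pooled class and on 20 for the stages. The stage "tubule precursors" holds proximal cells alone in C1. On simulated counts for 12410 genes of the nephron comparison, 36% of changes of 1 and 80% of changes of 2 on the log2 scale were called, with 7 false calls. Alternatives were thresholds, doublets, resolution, naming, C1 name groups, scaling, DESeq2 1.42.0, filters, the block and leaving out each library. All classes come from the same 3 libraries, so no replicate pairing beyond the library block exists. The partner lists, named-gene rule (up to 6 called genes per list with one direction in every library, by adjusted p, and the 3 most alike genes) and the 8 members were chosen with earlier results of these data known.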

Additional observations from a re-analysis of the deposited data

Results flagged for a closer look

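For 5 differences the libraries went opposite ways, which was not tested. R-cadherin (Cdh4) in nephron epithelium less cap mesenchyme differed by 13.9 CPM in Drop-seq, 0.137 CPM in 10X and -22.5 CPM in C1, and in early nephron epithelium less cap mesenchyme by 22.5, 2.27 and -6.87 CPM in the same libraries. P-cadherin (Cdh3) in tubule precursors less early nephron epithelium differed by 32.8 CPM in Drop-seq, 14.47 CPM in 10X and -13.5 CPM in C1, where the tubule class holds proximal cells alone. Cdh6 in the same comparison differed by -8.65 CPM in Drop-seq, -8.10 CPM in 10X and 11.4 CPM in C1. Cdh3 in endothelium less stroma differed by 0.598 CPM in Drop-seq, -5.99 CPM in 10X and 3.53 CPM in C1.

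The 55 C1 cells in no named class entered no comparison but had counts of cadherins above the limit that a count of 0 allows. Their levels were 43.0 CPM of Cdh2, 105 CPM of Cdh11, 10.6 CPM of Cdh4, 4.45 CPM of Cdh3, 2.13 CPM of Cdh16 and 1.33 CPM of Cdh5. The cluster was led by Kcnj8, Akr1b7 and Cygb, and 44 of its cells carried the name HT and 11 the name E14.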

How the results depend on the processing

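With 1 library per platform, edgeR's tests rest on how 3 unlike libraries agree. In the droplet libraries Cdh6, and Cdh5 outside endothelium, had at most 46 counts in a class. The call of Cdh5 in endothelium against stroma held in 15 of 15 alternative settings. Of the other called differences, Cdh4 in stroma held in 13, Cdh1 and Cdh16 in nephron epithelium, Cdh6 in ureteric epithelium and Cdh11 in endothelium in 12, Cdh11 in nephron epithelium in 11, Cdh6 in nephron epithelium and Cdh5 in stroma in 10, Cdh2 in nephron epithelium in 7 and Cdh2 in endothelium in 5. No called difference changed direction. The settings that ended most of them were leaving out Drop-seq or 10X, and dropping the library as a block.

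Without the replicate block (the library term), the number of genes called was 23 in nephron epithelium against cap mesenchyme, 24 in ureteric against nephron epithelium, 21 in stroma against cap mesenchyme, 147 in endothelium against stroma, 1 in early nephron epithelium against cap mesenchyme and 0 in tubule precursors against early nephron epithelium. The numbers with the block were 630, 635, 1024, 1635, 109 and 36 in the same order. Leaving out each library in turn gave 48 to 1160, 59 to 940, 108 to 1529, 293 to 2421, 0 to 530 and 0 to 281 calls, lowest without Drop-seq (for the last comparison also without 10X) and highest without C1 in each. Adjusting over all genes, which adds those that built the classes, gave 1461, 1420, 2067 and 2944 of 12797 genes for the pooled classes. For the stages it gave 420 and 257 of 12431 genes.

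Naming classes by marker z score gave 304, 249, 568, 174 and 196 calls for the comparisons other than endothelium against stroma. Leiden resolution 0.6 gave 386 calls in ureteric against nephron epithelium and 636 in stroma against cap mesenchyme. At that resolution no early nephron class was found, so its comparisons have no value there. Taking the C1 name groups apart gave 385 calls in ureteric against nephron epithelium. In the early step, DESeq2 gave 240 calls and leaving out clusters with no marker among their 10 leading genes, an alternative chosen after seeing the data, gave 221. In the tubule step, cells with 1000 or more genes gave 0, no doublet removal 274, resolution 1.6 gave 526, DESeq2 205 and leaving out such clusters 23, so that count is unsteady. The partner genes called over the 4 comparisons of pooled classes numbered 73, against 48 at resolution 0.6, 12 without the block and 13 to 105 with a library left out. The cause of these moves was not tested.

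The differences that changed sign were all uncalled (log2 fold changes, value with all libraries in brackets). Cdh4 in nephron epithelium against cap mesenchyme (-0.07) was 0.48 at resolution 1.6, 0.59 with z-score naming, 0.10 without the clusters lacking markers and -0.34 to 0.23 with a library left out. In stroma against cap mesenchyme the same first 3 settings gave 0.22, 0.51 and 0.85 for Cdh1 (-1.49), 0.26, 0.17 and 0.17 for Cdh3 (-0.42) and 0.13, 0.012 and 1.45 for Cdh16 (-0.36), and Cdh6 (0.24) was -0.0065 to 0.70 with a library left out. Cdh5 in nephron epithelium (0.53) was -0.071 with doublets kept and -0.039 at resolution 1.6. In the early step (0.40) it was -0.58 and -0.37 under those settings and -0.32 to 0.69 with a library left out, and in ureteric epithelium (-0.78) it was 0.54 with doublets kept and 0.049 with C1 name groups apart.

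In endothelium against stroma with a library left out, Cdh1 (1.17) ran over -0.31 to 1.48, Cdh4 over -0.42 to 1.42, Cdh16 (0.70) over -0.51 to 0.88 and Cdh3 (0.16) over -2.11 to 0.88, each lowest without C1, and Cdh3 was also -0.081 with z-score naming, -0.015 in DESeq2 and -0.21 without the block. In tubule precursors against early nephron epithelium, Cdh3 (0.34) was -0.22 at resolution 1.6, -0.32 with z-score naming, -0.37 with C1 name groups apart and -0.44 to 1.24 with a library left out. There Cdh5 (0.17) was -0.065 and Cdh6 (-0.72) 0.0044 with C1 name groups apart, and they ran over -0.29 to 1.07 and -1.89 to 0.23 with a library left out. With all nephron stages pooled into 1 class, the highest class of each cadherin in each library was the same in 23 or 24 of 24 cases under per-cell averaging, other clusterings, doublets kept and, for shares, all counts of each cell. The order with the stages apart was not recomputed under them.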
